A study of Mus musculus with 13 samples.

Results

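Integrins are adhesion receptors made of an α and a β chain, and the pairing decides the ligand: αL with β2 (LFA-1) binds ICAMs, α4 with β1 binds VCAM-1 and fibronectin, α4 with β7 binds MAdCAM-1, and αE with β7 (CD103) binds E-cadherin. On a resting lymphocyte they are held in a low-affinity form and are switched on from inside the cell, when the GTPase Rap1 brings talin and kindlin to the tail of the β chain. Thymocytes use them to move through the thymus and to hold on to stromal cells while they mature.

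The RNA of 10 integrin genes was followed here through 2 stages of T cell development: the β chains Itgb1, Itgb2, Itgb3 and Itgb7 and the α chains Itgal, Itga4, Itga5, Itga6, Itgae and Itgav, which are 10 of 47937 genes in the count table. The list was drawn up by hand and selected on the measured stage difference in Wt mice, where Itgb2 ranked high, so the Wt stage values are given as a description without a test. The stages were DN3 and DN4, the CD4-CD8- double negative (DN) stages before and after β-selection, the checkpoint that only cells with a working T cell receptor β chain pass. Cells were sorted from the thymus of C57BL/6 mice aged 6 weeks and were not cultured or treated. Control mice were WT;Lck-Cre+ (Wt) and the others Opa1fl/fl;Lck-Cre+, so both genotypes carried Cre recombinase under the T-lineage Lck promoter and only the latter carried floxed Opa1, which encodes a GTPase of the inner mitochondrial membrane. Each of the 13 libraries came from 1 mouse: 3 DN3 and 3 DN4 libraries of KO45, KO49 and KO51, 3 DN3 libraries of WT05, WT46 and WT48, and 4 DN4 libraries of these 3 Wt mice and WT40.

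Libraries held 5926848 to 14148661 counts, median 10023044. Opa1 had 705 to 1178 counts per library in the mice labelled KO and 382 to 1098 in Wt mice, and its fitted log2 difference was -0.12 in DN3 and -0.08 in DN4 (neither passed with edgeR's quasi-likelihood test). Counts were made over the whole gene, the loss of single exons was not examined, and the mice are therefore called KO-labelled. The paper reports less OPA1 protein in thymocyte lysates of this genotype by immunoblot. As a check of the stage labels, 5 DN3 markers (Il2ra, Ptcra, Notch3, Dtx1 and Hes1) summed to 1392 to 2190 CPM (counts scaled to a common library size) over the DN3 and to 139 to 248 CPM over the DN4 libraries. The DN3 library of WT05 stood apart, with 26.9% of its counts on ribosomal RNA-like genes against 0.346% to 1.38% in the others. The 6 markers of B cells summed to 20.9 to 54.7 CPM in DN3 and to 231 to 2950 CPM in DN4 libraries, most in WT48 (2950 CPM) and least in KO51 (231 CPM). Since the libraries are bulk RNA, fewer cells that express a gene and less RNA per cell cannot be told apart.

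All 10 genes are protein coding and lie on 6 chromosomes of the mouse genome build GRCm38. Itgal (ENSMUSG00000030830.18) spans chr7:127296260-127335138 and Itgb2 (ENSMUSG00000000290.13) chr10:77530252-77565708. Itgb7 (ENSMUSG00000001281.9) lies at chr15:102215995-102231944 and Itga5 (ENSMUSG00000000555.6) on the same chromosome at chr15:103344286-103366763, both on the minus strand. Itgae (ENSMUSG00000005947.11) at chr11:73090583-73147446 and Itgb3 (ENSMUSG00000020689.4) at chr11:104608000-104670476 share chromosome 11, and Itgb1 (ENSMUSG00000025809.15) lies at chr8:128685654-128733200. Chromosome 2 carries 3 α chains, Itga4 (ENSMUSG00000027009.18) at chr2:79255426-79333123, Itga6 (ENSMUSG00000027111.15) at chr2:71745616-71858416 and Itgav (ENSMUSG00000027087.11) at chr2:83724397-83806916. Exons of Itga4 share 1124 bases with Cerkl on the opposite strand, and those of Itgav 634 bases with Gm13684. The strand setting of the counting is not given in the sources used here, so reads in these stretches cannot be told apart by gene; Cerkl itself had 14 to 66 counts per library against 2644 to 6646 for Itga4.

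Levels of different genes were compared per kilobase of exon, over the union of each gene's exons, and parts of the resulting order depended on the length used. In the 3 KO-labelled DN3 libraries Itgb1 was highest at 51.4 ± 3.21 RPKM (CPM per kilobase of exon; SD, n = 3), followed by Itgal at 45.2 ± 3.88, Itga4 at 34.6 ± 4.02 and Itgb2 at 18.2 ± 2.22 RPKM. Itga5 (8.51 ± 0.895 RPKM) and Itga6 (5.25 ± 0.820 RPKM) came next, and Itgb7, Itgb3, Itgae and Itgav lay between 1.22 and 3.31 RPKM on average. Neighbours in this order overlapped for Itgb1 and Itgal and from Itga6 downwards, and the other neighbours did not overlap.

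In KO-labelled DN4 libraries Itgb2 came first at 80.6 ± 18.0 RPKM (SD, n = 3), followed by Itgal at 74.7 ± 12.3, Itgb7 at 46.6 ± 8.55 and Itgb1 at 38.4 ± 1.63 RPKM. Itga4 had 21.9 ± 1.29 RPKM, Itgb3 12.8 ± 1.87, Itgae 12.8 ± 2.52, Itga6 6.20 ± 0.718, Itga5 4.86 ± 0.832 and Itgav 2.45 ± 0.248 RPKM. Here the ranges of Itgb2 and Itgal overlapped, as did those of Itgb7 and Itgb1, of Itgb3 and Itgae, and of Itga6 and Itga5. In the 4 Wt DN4 libraries Itgae, at 25.4 ± 3.13 RPKM (SD, n = 4), stood above Itga4 at 22.9 ± 4.44 RPKM, with overlapping ranges.

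With the longest transcript as length the top of the order changed. Itgal then came first at both stages, in KO-labelled DN3 libraries at 56.9 ± 4.88 RPKM beside Itgb1 at 55.0 ± 3.43 with overlap, and in DN4 at 93.9 ± 15.5 RPKM against 82.8 ± 18.5 for Itgb2 (SD, n = 3 each), above it in every library. In DN3 Itga6, at 10.99 ± 1.72 RPKM, then stood above Itga5, which averaged 9.51 RPKM, with overlap, and in Wt DN4 Itga4, at 32.8 ± 6.35 RPKM, stood above Itgae at 30.3 ± 3.73 RPKM, also with overlap (SD, n = 4). With either length Itgb7 went from the seventh place in KO-labelled DN3 to the third in DN4, and Itgb2 from the fourth to the first or the second.

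Between DN3 and DN4 in KO-labelled mice, 9 of the 10 integrin genes passed the test. Itgb7, Itgae, Itgb3, Itgb2, Itgav and Itgal rose and Itga5, Itga4 and Itgb1 fell, while Itga6 did not pass. The selection by rank used the Wt libraries and not these, but earlier results of all libraries were known when the genes were listed. Over all 12580 genes tested, 18.6% passed the same test (edgeR quasi-likelihood, Benjamini-Hochberg adjusted p under 0.05). Of all genes tested, 11.2% were called higher and 7.34% lower in DN4, against 6 and 3 of 10 integrin genes. The DN3 and DN4 libraries did not overlap for the same 9 genes, as for 38.7% of all genes tested. The median log2 fold change was 0.84 over the 10 genes and -0.02 over all genes.

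**Figure D1:**
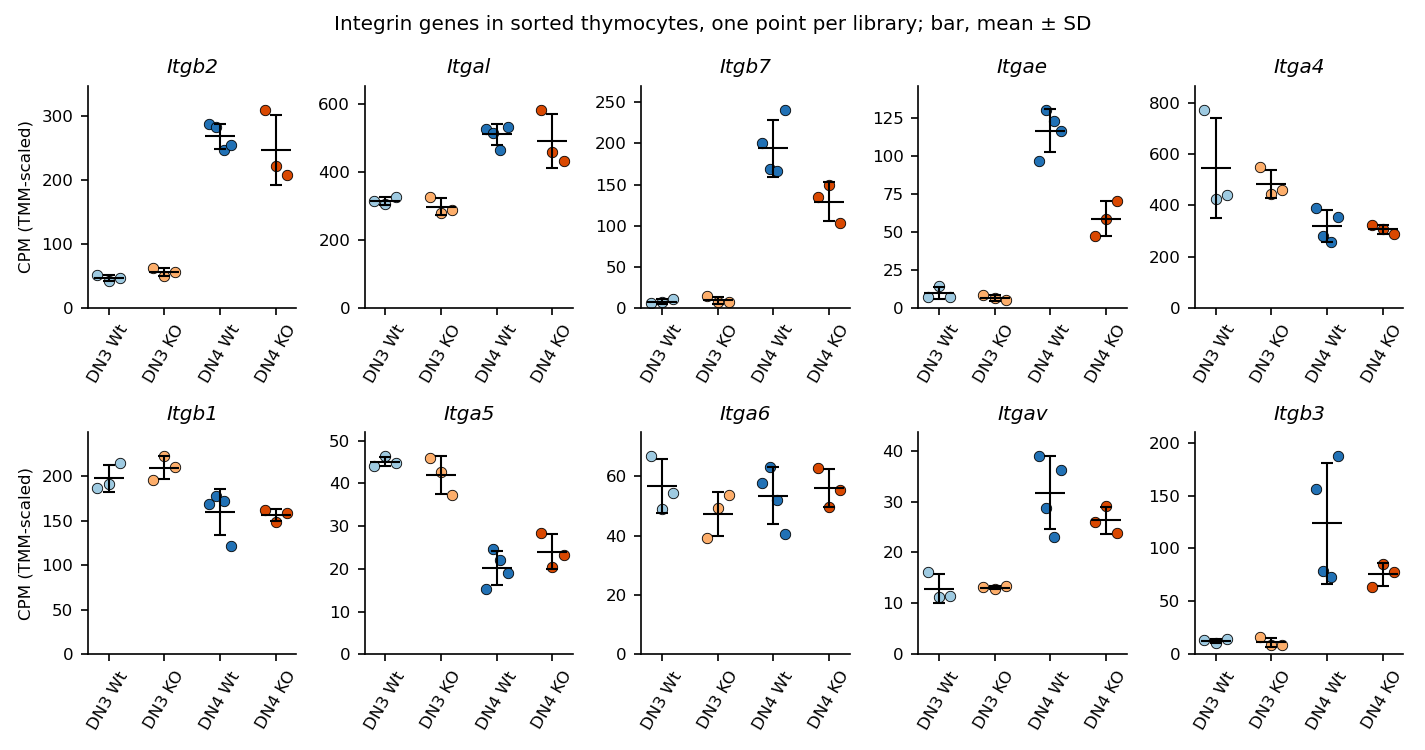
Level of each of the 10 integrin genes in CPM on TMM-scaled library sizes, in DN3 and DN4 libraries of Wt and KO-labelled mice; a point is 1 library, the bars are the mean ± SD. Itgb2, Itgb7, Itgae, Itgb3, Itgal and Itgav are higher in every DN4 library than in any DN3 library. Itgae and Itgb7 are lower in each KO-labelled DN4 library than in any Wt DN4 library.

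LFA-1, the integrin with which T cells grip antigen-presenting cells, is made from Itgal and Itgb2. In KO45, KO49 and KO51, Itgb2 stood at 62.5, 48.97 and 55.5 CPM in DN3 and at 309, 222 and 207 CPM in DN4. Every DN4 library lay more than 3 times above every DN3 library of these mice. The rise was 4.33-fold (log2 2.11, SE 0.181; edgeR quasi-likelihood, Benjamini-Hochberg adjusted p = 0.000546).

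Itgal was already abundant at DN3, with 326, 279 and 287 CPM, and reached 582, 458 and 431 CPM in DN4. The groups did not overlap, but the rise was smaller than that of its partner, 1.62-fold (log2 0.70, SE 0.144; edgeR quasi-likelihood adjusted p = 0.0133). This call was lost without the DN3 library of KO49 or of KO51 (edgeR adjusted p = 0.0724 and 0.0699). Per kilobase, the ratio of Itgal to Itgb2 went from 2.49 ± 0.136 in DN3 to 0.934 ± 0.0506 in DN4 (SD, n = 3 each), so that the 2 chains were at similar RNA levels after the checkpoint. With the longest transcript as length the ratios were 3.05 ± 0.166 and 1.14 ± 0.0620.

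Itgb7, the β chain of the mucosal homing receptors, had the largest fold change of the 10 genes. Its level was 14.1, 6.39 and 7.06 CPM at DN3 in KO45, KO49 and KO51, which is 171, 48 and 72 counts, and 134, 149.5 and 103 CPM in the DN4 libraries. No DN4 library came near a DN3 library, and the DN3 level was low without being at 0. The rise was 13.5-fold (log2 3.75, SE 0.319; edgeR quasi-likelihood adjusted p = 0.000546).

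The sequences upstream of Itgb7 and of its α partner Itga4 are shown because this pair moved in opposite directions between the stages. They are from RefSeq on GRCm38.p6 and end where the gene starts, 241 bases at chr15:102231945-102232185 on the minus strand for Itgb7 and 250 bases at chr2:79255176-79255425 on the plus strand for Itga4. Each is written 5′ to 3′ with the ETS core (GGAA, or TTCC on the other strand) in capitals.
Itgb7: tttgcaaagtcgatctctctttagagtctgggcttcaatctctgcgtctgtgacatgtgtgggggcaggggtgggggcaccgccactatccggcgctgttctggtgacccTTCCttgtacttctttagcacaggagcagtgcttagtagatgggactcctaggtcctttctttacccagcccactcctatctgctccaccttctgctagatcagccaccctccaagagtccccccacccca
Itga4: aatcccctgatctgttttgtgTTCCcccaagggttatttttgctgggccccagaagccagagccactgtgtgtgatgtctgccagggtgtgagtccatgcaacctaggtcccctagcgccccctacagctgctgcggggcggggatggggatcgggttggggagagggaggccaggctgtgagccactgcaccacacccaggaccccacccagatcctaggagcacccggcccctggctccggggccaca
Both strands were searched over windows of 250 bases, and that of Itgb7 (chr15:102231936-102232185) reached into the start of the gene. Each of these windows held 1 ETS core and 1 E-box (CANNTG), and only Itga4 held the Runt motif (TGTGGT) and the GC box (GGGCGG), once each. No 2 of these matches overlapped, and neither window held TATAAA. Over 32851 promoters of the same length, 93.4% held an ETS core, 66.2% an E-box, 14% the Runt motif, 32.7% a GC box and 12.4% TATAAA. Of the 10 genes, 5 were matched in this promoter set, the others being Itga5, Itgav and Itgb1, whose windows held 8, 4 and 4 ETS cores against a mean of 2.91 per promoter. Itgal, Itgb2, Itgae, Itga6 and Itgb3 were not looked up further. A match is a run of letters and not a binding site.

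Itgae, the chain that makes CD103 with β7, rose as well. It had 8.58, 6.25 and 4.81 CPM in DN3 and 47.0, 58.7 and 70.0 CPM in DN4 of KO45, KO49 and KO51. All DN4 libraries lay above all DN3 libraries, and KO51, the lowest of the 3 mice in DN3, was the highest in DN4. The rise was 8.69-fold (log2 3.12, SE 0.258; edgeR quasi-likelihood adjusted p = 0.000504). Per kilobase there was less Itgae than Itgb7 RNA in each KO-labelled library, with a ratio of 0.457 ± 0.119 in DN3 and 0.286 ± 0.108 in DN4 (SD, n = 3 each).

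Itga4, which can pair with either β1 or β7, fell. Its DN3 levels were 548, 444 and 460 CPM and its DN4 levels 323, 309 and 287 CPM. The groups did not overlap, and the fall was 1.61-fold (log2 -0.69, SE 0.128; edgeR quasi-likelihood adjusted p = 0.00864). With all 13 libraries in one fit the call was lost (edgeR adjusted p = 0.0515).

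The fibronectin and laminin receptors share β1. Itgb1 stood at 197, 223 and 210.3 CPM in DN3 and at 162, 149 and 159 CPM in DN4, a fall of 1.36-fold without overlap (log2 -0.44, SE 0.0964; edgeR quasi-likelihood adjusted p = 0.0161). That call was lost without the DN3 library of KO49 or KO51 or the DN4 library of KO49 (edgeR adjusted p = 0.0738, 0.0681 and 0.0850). Itga5, the fibronectin receptor α chain, went from 46.02, 42.7 and 37.3 CPM to 28.4, 20.3 and 23.2 CPM and fell 1.78-fold (log2 -0.84, SE 0.163; edgeR quasi-likelihood adjusted p = 0.0106). Itga6, a laminin receptor chain, had 39.2, 49.4 and 53.6 CPM in DN3 and 62.6, 49.7 and 55.5 CPM in DN4. These groups overlapped, and the log2 difference of 0.22 had a 95% interval of -0.11 to 0.54 (edgeR quasi-likelihood adjusted p = 0.321).

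The β3 chain pairs with αv in the vitronectin receptor, known from bone and vessels, and with αIIb on platelets. Itgb3 rose 6.52-fold in KO-labelled mice, from 16.5, 8.25 and 8.83 CPM to 63.6, 85.4 and 77.7 CPM (log2 2.70, SE 0.284; edgeR quasi-likelihood adjusted p = 0.00101). Its partner chain Itgav went from 13.1, 12.8 and 13.4 CPM to 26.0, 29.1 and 23.8 CPM and rose 1.97-fold (log2 0.98, SE 0.153; edgeR quasi-likelihood adjusted p = 0.00449). Neither gene overlapped between stages. Beside them, the 5 platelet and megakaryocyte markers summed to 0.785 to 2.44 CPM over all 13 libraries, with Pf4, Ppbp and Gp1bb at 0 in every one.

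**Figure D2:**
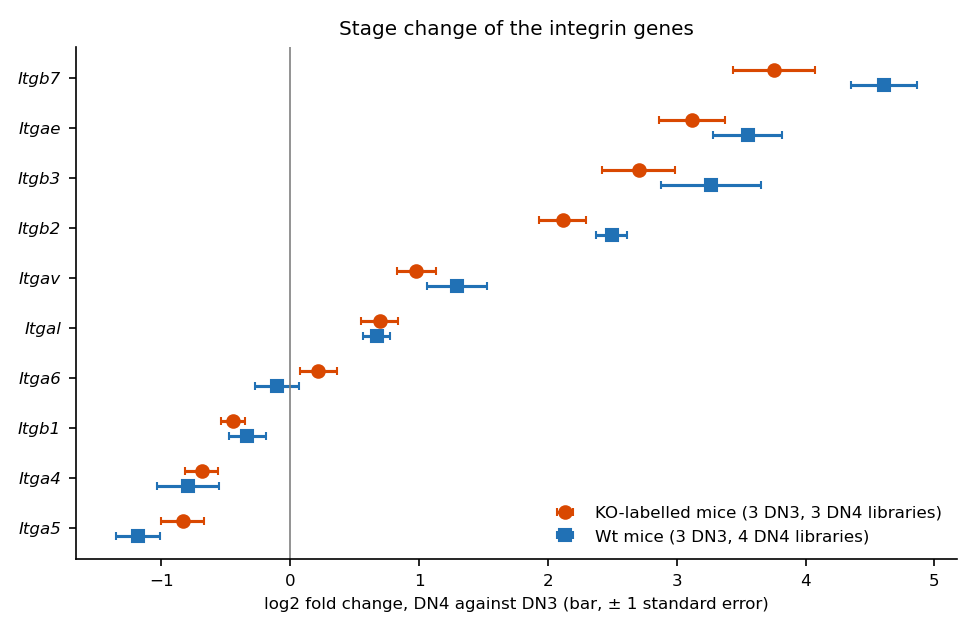
Log2 fold change of each integrin gene in DN4 against DN3, with 1 standard error on either side, in KO-labelled mice (circles) and Wt mice (squares). Itgb7 lies furthest to the right in both genotypes (3.75 and 4.61) and Itga5 furthest to the left (-0.84 and -1.18).

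With each mouse compared with itself, KO51, the mouse with the fewest B-cell marker counts in DN4, had log2 differences of 1.90 for Itgb2, 3.87 for Itgb7, 3.86 for Itgae and 3.14 for Itgb3. KO49, at 1756 CPM of B-cell markers, had 2.18, 4.55, 3.23 and 3.37, and KO45, at 1014 CPM, had 2.31, 3.25, 2.45 and 1.95. The 7 NK and innate lymphoid markers, read for another cell type that carries integrins, summed to 17.3 to 46.4 CPM in DN3 and 50.1 to 104 CPM in DN4. Most of this was Nkg7, at 13.8 to 43.6 CPM in DN3 and 36.1 to 74.2 CPM in DN4. Ncr1 and Klrb1c were at 0 in all DN3 libraries and at 0.0976 to 4.49 CPM in DN4. The 7 gamma delta T markers summed to 1089 to 2082 CPM in DN3 and 772 to 2301 CPM in DN4, a sum of genes that moved in opposite directions. Tcrg-C2 went from 341 to 758 CPM in DN3 to 121 to 330 CPM in DN4. Blk went from 20.8 to 33.8 CPM to 68.1 to 338 CPM, and Zbtb16 from 0 to 0.412 CPM to 2.58 to 11.9 CPM. Tcrg-C1, Tcrg-C4, Sox13 and Trdc overlapped between the stages. The 8 myeloid markers summed to 23.8 to 32.2 CPM in DN3 and 12.3 to 22.4 CPM in DN4. How much any of these cell types added to the integrin values was not tested. The 7 genes of DN4 and later thymocytes, Cd4 and Cd8a among them, went from 148 to 269 CPM in DN3 to 640 to 3637 CPM in DN4, with KO45 the highest, so the DN4 libraries differed in how much later-stage RNA they held.

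The make-up of the β chain RNA differed between the stages. Of the summed RPKM of Itgb1, Itgb2, Itgb3 and Itgb7, Itgb1 made 68.7% ± 5.33 in KO-labelled DN3 libraries and 21.7% ± 2.65 in DN4 (SD, n = 3 each). Itgb2 went from 24.3% ± 2.60 to 44.9% ± 5.06, Itgb7 from 4.40% ± 1.95 to 26.1% ± 3.73 and Itgb3 from 2.52% ± 0.983 to 7.30% ± 1.67. None of the 4 shares overlapped between the stages. Between the 2 β chains that α4 can choose from, Itgb7 was 6.11% ± 3.01 of Itgb1 plus Itgb7 in DN3 and 54.5% ± 5.38 in DN4 (SD, n = 3 each).

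Among the 6 α chains, measured as their share of the summed RPKM, Itgal went from 47.0% ± 0.276 to 60.5% ± 3.76 and Itga4 from 35.9% ± 1.11 to 17.9% ± 1.03 in KO-labelled mice (SD, n = 3 each). Itgae went from 1.47% ± 0.319 to 10.6% ± 2.95 and Itga5 from 8.85% ± 0.672 to 3.94% ± 0.369. RNA shares say nothing of which pairs formed at the cell surface, which was not measured in these files.

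**Figure D3:**
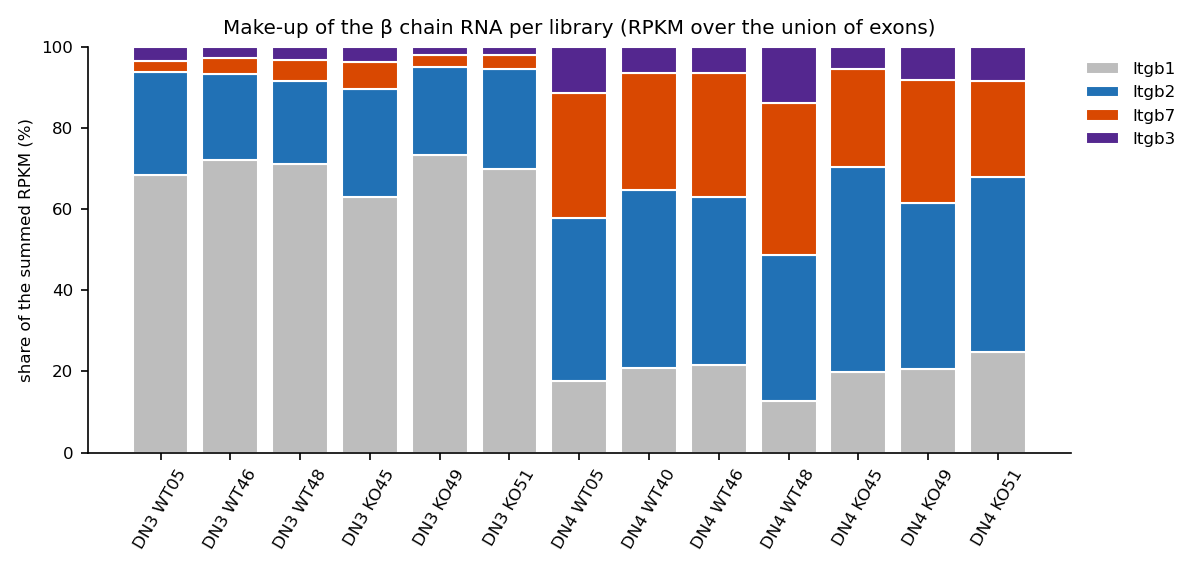
Share of Itgb1, Itgb2, Itgb7 and Itgb3 in their summed RPKM, in percent, 1 bar per library. Itgb1 takes 62.9% to 73.4% of each DN3 bar and 12.8% to 24.8% of each DN4 bar, and Itgb7 takes 2.83% to 6.65% and 23.7% to 37.5%.

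The Wt mice, whose stage difference was in view when the genes were chosen, are described without a test. Itgb2 stood at 51.8, 42.2 and 46.5 CPM in DN3 of WT05, WT46 and WT48 and at 287, 282, 247 and 254 CPM in DN4 of WT05, WT40, WT46 and WT48. Its log2 difference of 2.49 (SE 0.122) was rank 807 by size among 12691 genes. Itgal had 313, 304 and 327 CPM in DN3 and 527, 515, 465 and 532 CPM in DN4, a log2 difference of 0.67 (SE 0.107). For both chains of LFA-1 each Wt DN4 library lay above each Wt DN3 library. The ratio of Itgal to Itgb2 per kilobase was 3.14 ± 0.288 in Wt DN3 (SD, n = 3) and 0.887 ± 0.0571 in Wt DN4 (SD, n = 4).

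Itgb7 had 5.27, 7.08 and 10.4 CPM in Wt DN3 and 201, 168, 167 and 241 CPM in Wt DN4, a log2 difference of 4.61 (SE 0.256). Itgae had 7.32, 14.1 and 7.05 CPM in Wt DN3 and 96.9, 130.3, 123 and 116 CPM in Wt DN4, a log2 difference of 3.55 (SE 0.267). For both chains of CD103 the lowest Wt DN4 library was more than 5 times above the highest Wt DN3 library.

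Itgb3 had 13.5, 10.6 and 14.1 CPM in Wt DN3 and 156, 78.2, 73.3 and 187 CPM in DN4 of WT05, WT40, WT46 and WT48, a log2 difference of 3.27 (SE 0.390). The B-cell markers of the same 4 libraries summed to 1553, 323, 432 and 2950 CPM, and whether that bears on Itgb3 was not tested. Itgav stood at 16.1, 11.2 and 11.5 CPM in Wt DN3 and at 38.9, 28.7, 23.1 and 36.1 CPM in Wt DN4, a log2 difference of 1.30 (SE 0.231). Here too WT05 and WT48 were the highest of the DN4 libraries, and neither gene overlapped between the Wt stages.

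Itga4, at 774 CPM in the DN3 library with many ribosomal RNA-like counts (WT05) and 426 and 439 CPM in the other 2, was at 258 to 389 CPM in Wt DN4. Without WT05 its log2 difference went from -0.79 to -0.47. Itga5 had 44.2, 46.4 and 44.8 CPM in Wt DN3 and 15.2, 24.6, 22.0 and 19.1 CPM in Wt DN4, a log2 difference of -1.18 (SE 0.170). All 3 DN3 libraries were above all 4 DN4 libraries. Itgb1 had 188, 191 and 215 CPM in DN3 and 169, 178, 173 and 121 CPM in DN4, a log2 difference of -0.33 (SE 0.146), with WT48 the lowest and the other DN4 libraries close below DN3. Itga6 had 66.7, 48.9 and 54.4 CPM in DN3 and 57.8, 63.2, 52.1 and 40.7 CPM in DN4, with overlap and a log2 difference of -0.10 (SE 0.174). All but Itga6 had no overlap between Wt DN3 and DN4 libraries, 9 of 10 against 35% of all genes, a count that the choice of the genes had in view and that carries no weight of its own. Scaled by library totals, the count was 8. Itgb1 made 70.6% ± 1.86 of the summed RPKM of the 4 β chains in Wt DN3 and 18.2% ± 3.98 in Wt DN4, and Itgb2 22.4% ± 2.56 and 40.4% ± 3.33 (SD, n = 3 and 4). In Wt DN4, Itgb7 made 63.8% ± 7.58 of Itgb1 plus Itgb7 (SD, n = 4), against 5.25% ± 1.32 in Wt DN3 (SD, n = 3).

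Whether the genotype moved the integrin genes was asked at each stage. Both comparisons use Wt libraries on which the genes were selected, so they are not independent of that choice. In DN4, 0 of 10 passed the test of KO-labelled against Wt (edgeR quasi-likelihood, adjusted p under 0.05), as 0.0535% of all 13084 genes did. At an unadjusted p under 0.05 there were 2 of 10, against 5.46% of all genes. The adjusted count was 1 with DESeq2, which called 0.409% of all genes, and 0 with limma-voom, which called 0.0611%. The 2 genes, Itgae and Itgb7, were also the members whose groups did not overlap (7.08% of all genes), and both were lower in KO-labelled mice.

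Itgae stood at 47.0, 58.7 and 70.0 CPM in DN4 of KO45, KO49 and KO51 and at 96.9, 130.3, 123 and 116 CPM in DN4 of WT05, WT40, WT46 and WT48. Each KO-labelled library was below each Wt library. The difference was 1.95-fold, log2 -0.96 with a 95% interval of -1.33 to -0.60; it did not pass with edgeR (quasi-likelihood, adjusted p = 0.231) and did with DESeq2 (Wald test, adjusted p = 4.09e-05). With each DN4 library left out in turn, edgeR's adjusted p was 0.217 to 0.766. The same with DESeq2, a check chosen after the values were seen, gave an adjusted p of 1.49e-06 to 0.00744.

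For Itgb7 the DN4 values were 134, 149.5 and 103 CPM in KO-labelled and 201, 168, 167 and 241 CPM in Wt mice. No KO-labelled library reached a Wt library, but the difference passed with neither tool (log2 -0.56, SE 0.165; edgeR quasi-likelihood adjusted p = 0.832, DESeq2 adjusted p = 0.190). All 3 KO-labelled mice and WT05 and WT48 express Xist, the RNA of the inactive X chromosome, and WT40 and WT46 do not. Against WT05 and WT48 alone, Itgae was at 96.9 and 116 CPM and Itgb7 at 201 and 241 CPM, where KO-labelled libraries ranged from 47.0 to 70.0 and from 103 to 149.5 CPM. With 2 such Wt libraries, the part of the sex of the mice was not tested.

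Other RNA also differed between these DN4 libraries. The 5 DN3 markers summed to 215 to 248 CPM in KO-labelled and 139 to 191 CPM in Wt DN4 libraries, without overlap. Of these 5, only Notch3 was itself without overlap (77.3 to 146 and 46.9 to 55.8 CPM). The 7 NK and innate lymphoid markers summed to 50.1 to 77.3 and 78.3 to 104 CPM, lower in KO-labelled mice like Itgae and Itgb7. Most of that sum was Nkg7 (36.1 to 45.8 and 60.6 to 74.2 CPM). Nkg7 and Eomes were without overlap, and the other NK and innate lymphoid markers overlapped. B-cell markers summed to 1014, 1756 and 231 CPM in KO45, KO49 and KO51 and to 1553, 323, 432 and 2950 CPM in WT05, WT40, WT46 and WT48, and within each genotype the libraries with most of them, KO49 and WT48, were also the highest in Itgb7. KO49 and WT48 were likewise the highest of their genotype in NK and innate lymphoid (77.3 and 104 CPM) and gamma delta T markers (1170 and 2301 CPM). The same held for the mature single positive markers (817 and 1375 CPM). Gamma delta T markers, which mark another lineage that makes CD103, summed to 772 to 1170 CPM in KO-labelled and 970 to 2301 CPM in Wt DN4 libraries, and the markers of DN4 and later thymocytes to 1240 to 3637 and 640 to 2430 CPM, with overlap in each case. The part of these cells and stages in the lower Itgae and Itgb7 was not tested.

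The other 8 genes overlapped between genotypes in DN4. Itgb3 had log2 -0.67 with a 95% interval of -1.42 to 0.07, Itga5 0.28 with -0.18 to 0.74, and Itgav -0.23 with -0.64 to 0.18. With a DN4 library left out, Itgb3 was at -0.86 to -0.42, Itga5 at 0.12 to 0.40 and Itgav at -0.36 to -0.13. Itgal, Itgb2, Itga4, Itgb1 and Itga6 lay between -0.08 and 0.10, with intervals that reached no further than -0.44 or 0.48.

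In DN3, edgeR passed 0 of 10 (0% of all 12105 genes), with 0 of 10 at an unadjusted p under 0.05 (1.39% of all genes) and 0 with DESeq2 and limma-voom, and all 10 overlapped between the genotypes (6.44% of all genes did not). The log2 differences ran from -0.56 for Itgae, with a 95% interval of -1.38 to 0.26, to 0.26 for Itgb7, with -0.61 to 1.13. With a DN3 library left out they were -0.82 to -0.13 for Itgae and -0.20 to 0.55 for Itgb7. These 2 genes had only 18 to 171 counts per DN3 library, and a genotype difference of the size seen in DN4 lay within their intervals.

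**Figure D4:**
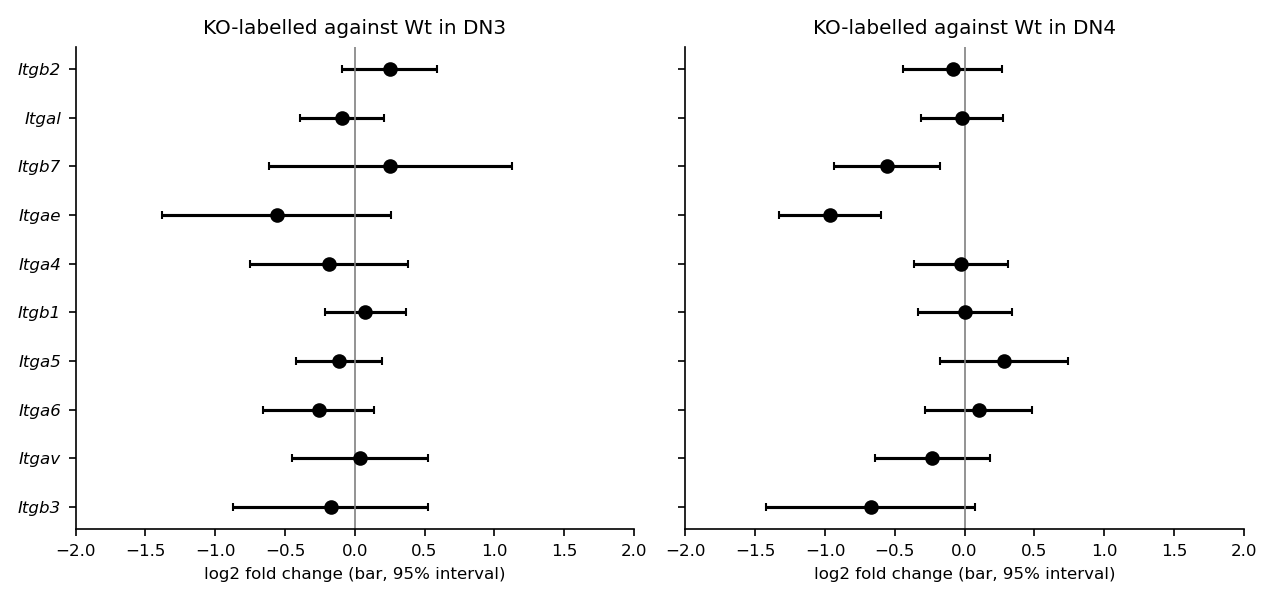
Log2 fold change of KO-labelled against Wt mice for each integrin gene in DN3 (left) and DN4 (right), with 95% intervals. In DN4 the intervals of Itgae (-1.33 to -0.60) and Itgb7 (-0.93 to -0.18) leave out 0, and in DN3 all 10 intervals hold it.

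The difference between the genotypes' stage changes was fitted over all 13 libraries; it contains the Wt stage change and so is not independent of how the genes were chosen. None of the 10 passed (edgeR quasi-likelihood, 0% of all 13361 genes), 0 had an unadjusted p under 0.05 (3.59% of all genes), and DESeq2 and limma-voom also gave 0. The largest was Itgb7 at -0.84, with a 95% interval of -1.70 to 0.02, and it was -0.37 without the DN3 library of KO45 and -1.13 without that of WT48. That the lower Itgae and Itgb7 of KO-labelled mice belong to DN4 alone was therefore not shown.

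Of the 16 integrin genes outside the list, 7 had enough counts to be tested between the stages in KO-labelled mice and 2 passed, where 18.6% of all genes did. One of them, Itgb8, entered the test only through its DN4 counts, and with at least 10 counts required in every library 1 passed. Itgb4, the β chain that pairs with α6 alone, had 88.2, 53.2 and 40.4 CPM in DN3 and 4.37, 1.87 and 3.09 CPM in DN4, without overlap, and fell by 4.32 on the log2 scale (SE 0.402; edgeR quasi-likelihood adjusted p = 0.000578). Itga6 had no such fall. Itgb8, which pairs with αv, had 1, 0 and 1 counts in DN3 and 27, 64 and 57 counts in DN4; the ratio of summed counts, scaled by library size, was 57.4 with a 95% counting interval of 15.6 to 478. Itga1, Itga2 and Itga7, named after their values were seen, had 0 counts in all 6 DN3 libraries and in KO-labelled DN4 libraries were at least 5.95-fold, 9.05-fold and 4.65-fold higher than 3 counts over the DN3 group would be.

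Genes that switch integrins on or tie them to actin were read from a list of their own. Of 48 listed, 40 were tested, and 15 rose and 2 fell between DN3 and DN4 in KO-labelled mice, where 11.2% of all genes passed as higher and 7.34% as lower. The median log2 fold change was 0.28 over the 40 against -0.02 over all genes. With the mouse as a replicate block 24 passed, where 35.8% of all genes did. Without the DN3 library of KO49 or of KO51 the count was 9, and it was 10 when KO45 or KO49 was missing from DN4. The 5 that rose most were Cd81, Flna, Ptk2, Ptk2b and Sipa1.

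Cd81, a tetraspanin that sits beside integrins in the membrane, went from 11.1, 16.8 and 11.5 CPM to 51.3, 52.1 and 33.8 CPM (log2 1.79, SE 0.229; edgeR quasi-likelihood adjusted p = 0.00192). Cd81 is also part of the B-cell coreceptor. The B-cell markers of these DN4 libraries summed to 1014, 1756 and 231 CPM, and in Wt DN4 libraries Cd81 had 57.8, 44.4, 47.9 and 53.4 CPM beside 1553, 323, 432 and 2950 CPM of these markers, whose part in the rise of Cd81 was not tested. Flna, filamin A, which binds β chain tails in competition with talin, went from 165, 182 and 194 CPM to 613, 685 and 568 CPM (log2 1.76, SE 0.119; edgeR quasi-likelihood adjusted p = 0.000377). Ptk2 and Ptk2b, the focal adhesion kinases FAK and PYK2, rose by log2 1.68 and 1.64 (edgeR quasi-likelihood adjusted p = 0.0174 and 0.00158), although Ptk2 stayed at 3.803 to 6.73 CPM in DN4 where Ptk2b reached 188 to 288 CPM.

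Sipa1, which turns Rap1 off, rose by log2 1.47 (SE 0.183), from 81.3 to 96.2 CPM to 190.2 to 308 CPM (edgeR quasi-likelihood adjusted p = 0.00174). In DN4 of KO45, KO49 and KO51 Sipa1 had 256, 308.5 and 190 CPM and Ptk2b 274, 288 and 188 CPM. In DN4 of WT05, WT40, WT46 and WT48 Sipa1 had 282, 204, 191 and 454 CPM and Ptk2b 327, 221, 224 and 410 CPM. Both were highest in KO49 and WT48, the libraries with most B-cell markers in each genotype, and the part of B cells was not tested. Other genes of the list that act with Rap1 or on the β chain tail are named here after their values were seen. Among those that rose were Rasgrp1 and Rasgrp2, exchange factors that load Ras and Rap proteins, from 199 ± 22.7 to 458 ± 46.3 CPM and from 118 ± 0.706 to 257 ± 14.5 CPM (SD, n = 3 each), Tln1 (talin) from 398 ± 30.8 to 602 ± 28.3 CPM, and Rap1b (log2 0.51, SE 0.132; edgeR quasi-likelihood adjusted p = 0.0326). Rapgef1, an exchange factor for Rap1, rose by log2 0.39 (SE 0.104; edgeR quasi-likelihood adjusted p = 0.0360), and the rest of the 15 were Vasp, Dock2, Cyth1, Stk4 and Ilk, with log2 fold changes from 0.39 for Ilk to 1.02 for Vasp. Rap1a (log2 0.11), Apbb1ip, the adaptor RIAM (log2 0.11), and Rassf5, the Rap effector RAPL (log2 0.16), did not pass (edgeR quasi-likelihood adjusted p = 0.549, 0.572 and 0.508). Fermt3, the kindlin of blood cells, had 279.7 ± 33.9 CPM in DN3 and 341 ± 29.9 CPM in DN4 (SD, n = 3 each) and did not pass. The 2 that fell were Rapgef2, another exchange factor for Rap1 (log2 -1.11, SE 0.156; edgeR quasi-likelihood adjusted p = 0.00289), and Parvg, γ-parvin (log2 -0.42, SE 0.110; adjusted p = 0.0331). Rapgef2 had 75.4, 95.1 and 70.9 CPM in DN3 and 32.1, 39.3 and 41.9 CPM in DN4. The list therefore holds members that rose and act for and against the active form of integrins.

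**Figure D5:**
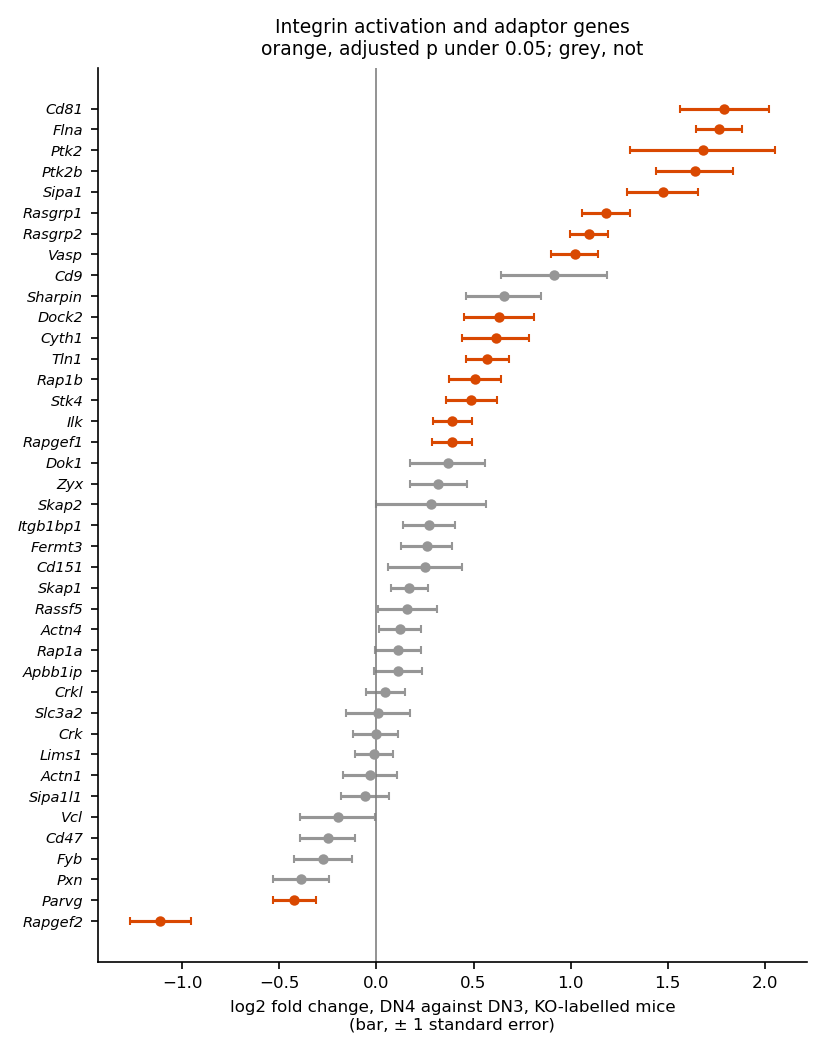
Log2 fold change in DN4 against DN3 of KO-labelled mice for the 40 tested genes of integrin activation and actin linkage, with 1 standard error on either side; orange marks an adjusted p under 0.05. Of these, 15 orange points lie to the right of 0, up to 1.79 for Cd81, and 2 to the left, Parvg at -0.42 and Rapgef2 at -1.11.

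Of 30 listed ligands, 7 were tested and 3 passed, where 18.6% of all genes did. Cdh1, E-cadherin, the ligand of CD103, fell, from 49.5, 37.5 and 30.4 CPM in DN3 to 1.86, 3.73 and 3.69 CPM in DN4 (log2 -3.70, SE 0.324; edgeR quasi-likelihood adjusted p = 0.000546), while Itgae rose. Which cells of the sort held this RNA was not tested, and the stromal, epithelial and endothelial markers summed to 112 to 247 CPM over the 13 libraries. Most of that sum was Pecam1, at 95.7 to 236 CPM. Epcam went down like Cdh1, from 16.7 to 58.0 CPM in DN3 to 8.10 to 10.7 CPM in DN4. Krt8, Col3a1 and Pdgfra were at 0 in all DN3 libraries. The LFA-1 ligands Icam1 and Icam2 rose together with Itgb2, Icam1 from 23.0, 12.4 and 16.9 CPM to 29.9, 39.8 and 29.8 CPM (log2 0.89, SE 0.250; edgeR quasi-likelihood adjusted p = 0.0426) and Icam2 from 44.5, 44.8 and 43.7 CPM to 79.0, 69.8 and 60.2 CPM (log2 0.63, SE 0.123; adjusted p = 0.0107). Within each genotype Icam1 in DN4 was highest in KO49 and WT48 (39.8 and 59.9 CPM), the libraries with most B-cell markers. The part of B cells in its rise was not tested. Vcam1 and Madcam1, the ligands of the α4 integrins, were not among the 7 with enough counts. Between the genotypes and in the interaction, edgeR, DESeq2 and limma-voom each passed 0 genes of the 3 lists, and at an unadjusted p under 0.05 edgeR passed 1 of 41 adaptor genes in DN4 (5.46% of all genes), 1 of 5 other integrin genes in DN3 (1.39% of all genes), and 2 of 41 adaptor genes and 1 of 9 other integrin genes in the interaction (3.59% of all genes).

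The genes whose profile over the 13 libraries was closest to that of Itgb2, by the root-mean-square difference of mean-centred log2 CPM among 13360 genes, were Egr1 (0.232), Trib2 (0.235), Gpr146 (0.240), Gramd1a (0.243) and Tmsb10 (0.262). Egr1, an immediate early gene of receptor signalling, had 15.7 ± 3.68 CPM in KO-labelled DN3 and 81.7 ± 17.9 CPM in DN4 (SD, n = 3 each), and 16.3 ± 1.47 (n = 3) and 87.8 ± 13.1 CPM (n = 4) in Wt mice. Tmsb10, thymosin β10, which binds actin monomers, went from 93.9 ± 9.79 to 359.9 ± 35.3 CPM in KO-labelled mice.

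For Itgae the closest were A530021J07Rik (0.383), Pdgfb (0.415), Aqp3 (0.429), Ubash3b (0.432) and C1ql3 (0.432). They were at 0 to 4.39 CPM in every DN3 library, and in DN4 the group means were lower in KO-labelled than in Wt mice for all 5, as the likeness to Itgae asks for. Ubash3b, a phosphatase that damps T cell receptor signalling, had 28.4 ± 5.13 CPM in KO-labelled (SD, n = 3) and 44.5 ± 11.9 CPM in Wt DN4 libraries (SD, n = 4), and the other 4 stayed at 0.761 to 4.34 CPM in DN4. The distance is a description without a test.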

How the data were processed

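Stranded mRNA libraries of sorted DN3 and DN4 thymocytes were sequenced. Per the labels and the methods of the paper, the authors trimmed reads with Cutadapt, mapped them to mm10 with STAR and made the deposited table of raw read counts per gene with featureCounts. DESeq2 was their test. Versions are not given in the sources used here. The table holds whole numbers for 47937 genes in 13 libraries, with 0 unused columns. Names, exon lengths and coordinates came from GENCODE M21 on GRCm38, where 47310 identifiers matched without their version and 39192 with it. Upstream sequences came from RefSeq (GRCm38.p6).

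Tests were run in R 4.3.3 over all genes, on only the groups compared (all 13 libraries for the interaction). Genes were filtered with filterByExpr (minimum count 10) and scaled by TMM, edgeR 4.0.16 gave the quasi-likelihood test, and a Benjamini-Hochberg adjusted p under 0.05 was called. All 10 integrin genes passed the filter in each comparison. The authors' tool, DESeq2 1.42.0 (Wald test), and limma-voom (limma 3.58.1) were alternatives. CPM use TMM-scaled library sizes over the 13 libraries, and RPKM divide these by the union of exons. SE is the log2 fold change over the root of its F statistic. At the lowest depth, 5926848 counts, genes near 5 CPM have few counts, and counting error limits their values.

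The 10 genes and the gene lists were chosen with earlier results of these data known, and no list was tested as a set. Genes named are the 10; the other integrin, activation and ligand genes past the threshold between stages in KO-labelled mice, up to 5 per list and direction; the 5 nearest profiles to Itgb2 and to Itgae; and Opa1. Other genes named among the adaptors (Rasgrp1, Rasgrp2, Rap1b, Tln1, Fermt3, Rap1a, Apbb1ip, Rassf5, Rapgef1, Vasp, Dock2, Cyth1, Stk4, Ilk), ligands not tested, and markers were chosen after values were seen or as markers.

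The title numbers (KO45 and so on) were read as mice. Over 13361 genes, a mouse's DN3 and DN4 libraries deviated from the means of their groups with correlations of 0.460, 0.213 and 0.331 for KO45, KO49 and KO51 and of 0.193, 0.120 and 0.183 for WT05, WT46 and WT48, all over 0.1, so the numbers were taken to pair the samples. No libraries of one group were duplicates, the lowest chi-squared per degree of freedom being 6.19. The fits were also tested on simulated data.

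Alternatives were DESeq2's size factors, library totals, TMM without ribosomal RNA-like genes, no filter beyond 1 count, at least 10 counts in every library, all 13 libraries in one fit, a threshold of 0.1, the mouse as a replicate block, each library left out and the longest transcript as length. DESeq2 with each DN4 library left out was added after the data were seen.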

Additional observations from a re-analysis of the deposited data

Results flagged for a closer look

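Itgb1 in Wt DN4 libraries had 1 library far from the others: 121 CPM in WT48 against 169, 178 and 173 CPM in WT05, WT40 and WT46, a gap that was 0.831 of the whole range of the group, just over the limit of Dixon's test for 4 samples. Of 45 checks of this kind on the integrin genes and their shares this was the only one past its limit, and about 1 in 20 passes by chance. WT48 was also the library with the most B-cell marker RNA, 2950 CPM, and whether that bears on Itgb1 was not tested. Without WT48, the DN4 log2 difference of Itgb1 between KO-labelled and Wt mice was -0.13 in place of 0.00.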

How the results depend on the processing

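The count of 9 integrin genes called between the stages in KO-labelled mice was 7 to 9 in all settings run, 9 of them also with the mouse as a replicate block, in which no integrin gene changed its call although all calls went from 2338 to 4499. In DN4 the genotype count was 1 with DESeq2's Wald test (0.409% of all genes) and 0 otherwise. Of the other integrin genes, 2 passed, but 5 with no filter beyond 1 count, 1 with at least 10 counts in every library, 4 with the Wald test and 4 with all 13 libraries in one fit. The adaptor count of 17 ran from 9 to 17 with a library left out. The difference between stages in the ratio of Itgal to Itgb2 moved from -1.56 to -1.90 with the longest transcript as length.

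Directions turned only in values that passed no test or had none. Library totals, which the ribosomal RNA-like counts of WT05 enter, moved the median log2 difference of all genes to 0.23 between genotypes in DN3 and to -0.20 in the interaction, and with them turned Itgal (0.16), Itga4 (0.18), Itga6 (0.020), Itga5 (0.13) and Itgb3 (0.078) in DN3, Itgal (-0.16) and Itga4 (-0.19) in the interaction, and Itga6 between Wt stages (0.12). Itgb1 between genotypes in DN4, near 0, was -0.011 with DESeq2's size factors, -0.019 without ribosomal RNA-like genes, -0.016 with no filter, -0.011 with the Wald test and -0.032 in one fit. With a library left out, the ranges that crossed 0 were -0.20 to 0.017 for Itga6 between Wt stages; in DN4 -0.18 to 0.077 for Itgal, -0.30 to 0.036 for Itgb2, -0.12 to 0.069 for Itga4, -0.13 to 0.053 for Itgb1 and -0.028 to 0.20 for Itga6; in DN3 -0.33 to 0.16 for Itga4, -0.20 to 0.55 for Itgb7 and -0.058 to 0.21 for Itgav; and in the interaction -0.12 to 0.11 for Itgal and -0.21 to 0.26 for Itga4. The cause was not tested. Itgb7 and Itgae, near 5 CPM in DN3, had as few as 18 and 25 counts there, which limits the precision of their folds and DN3 genotype differences.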
